A study of Mus musculus with 6 samples.

Results

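Mitochondrial ribosomal protein genes were taken from the RNA sequencing tables of wild-type mouse retina as the rows whose symbol starts with Mrpl or Mrps followed by a number. The pattern found 76 of the 15465 genes, 47 with an Mrpl symbol (large subunit) and 29 with an Mrps symbol (small subunit). All samples were retina of the strain C57BL6/J with the genotype Wild Type, and the labels give neither age nor sex. The 6 samples form 1 group of 3 biological replicates with 2 technical replicates each, every library from a pool of 5 mice, and both technical replicates of a biological replicate share 1 deposited column, so n was 3. This grouping follows the sample titles. The source labels number the samples differently and would mix the replicates, in which case the 3 columns would not be independent.

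The deposited values were taken as RPKM (reads scaled to transcript length and to the library's total), a unit inferred from the values, and the read depth is unknown. They summed to 275995, 302634 and 249532 RPKM in replicates 1, 2 and 3. The retina label was checked against rod photoreceptor markers, whose 10 genes summed to between 19932 and 25155 RPKM per replicate. Genes listed as markers of neighbouring tissues were also present, at 3873 to 4921 RPKM for 10 lens genes and 466 to 742 RPKM for 10 pigment epithelium genes. Rlbp1 alone gave 221, 262 and 192 RPKM of the pigment epithelium sum in replicates 1, 2 and 3. Whether these RNAs came from neighbouring tissue was not tested. None of these markers was listed at 0. With 1 group there was no comparison between conditions, and the members were described by level, by subunit and by their spread between replicates. In a bulk sample such as this one, the share of a cell type and its RNA per cell cannot be told apart.

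The mitochondrial ribosome makes the few proteins encoded by mitochondrial DNA, which are core subunits of the respiratory chain complexes and of ATP synthase. Its RNAs come from the mitochondrial genome, whereas its proteins are encoded in the nucleus, made in the cytosol and imported. The small subunit decodes the messenger RNA and the large subunit joins the amino acids and releases the growing chain through its exit tunnel towards the inner membrane. Part of the proteins descend from bacterial ribosomal proteins and the others are found only in mitochondrial ribosomes. Photoreceptors, the most numerous cells of the mouse retina, pack mitochondria into their inner segments and have a high demand for ATP.

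Nearly all members were expressed. At least 1 RPKM in every replicate was listed for 73 of 76 members (96.1%), against 11978 of 15465 genes (77.5%). The exceptions were Mrps36, low in all replicates, and Mrpl23 and Mrpl24, which were high in 1 replicate and under 1 RPKM in at least 1 other. Together the members made up 0.495% ± 0.0630 (SD, n = 3) of the summed RPKM, with sums of 1284, 1717 and 1128 RPKM in replicates 1, 2 and 3.

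The median member level was 13.1, 19.3 and 12.7 RPKM in replicates 1, 2 and 3, which gave 15.03 ± 3.73 (SD, n = 3). The genes tested below were the 12562 whose mean reached 1 RPKM, and their medians were 8.64, 9.53 and 8.37 RPKM (8.85 ± 0.607). A total of 58 of 76 members (76.3%) had a mean above the median of these genes. On the scale of log2(RPKM + 0.1), the member median exceeded that of all tested genes by 0.63, 1.08 and 0.59 in the 3 replicates, a mean of 0.77 ± 0.27 or 1.70-fold. The direction was the same in 3 of 3 replicates, and the exact two-sided sign-flip permutation test over replicates gave p = 0.25, the smallest value that 3 replicates allow. Of the 76 members, 75 passed the mean filter and entered this difference. Members are short, with a median transcript length of 1224 bases against 2907 bases for the tested genes, and the difference reversed to -0.28 when each RPKM was multiplied by transcript length. This product undoes the scaling to length and lowers shorter genes relative to longer ones, so it is not a level of expression.

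Levels differed between the members, most of whose proteins belong to the same complex, but less widely than between all tested genes. Member means ran from 0.387 to 56.4 RPKM, with quartiles of 9.69, 16.02 and 24.5 RPKM. The 10th and 90th percentiles lay 7.5-fold apart, at 4.61 and 34.6 RPKM, against 21.2-fold for the 12562 tested genes. In all, 55 members had a mean of 10 RPKM or more, 12 of 30 or more and 8 of under 5. Over all 15465 genes these counts were 5851, 1902 and 6902. Across the 76 members the log2 mean level had little relation to log2 transcript length (Pearson r = -0.12, Spearman rho = -0.12, across genes of the same libraries).

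**Figure D1:**
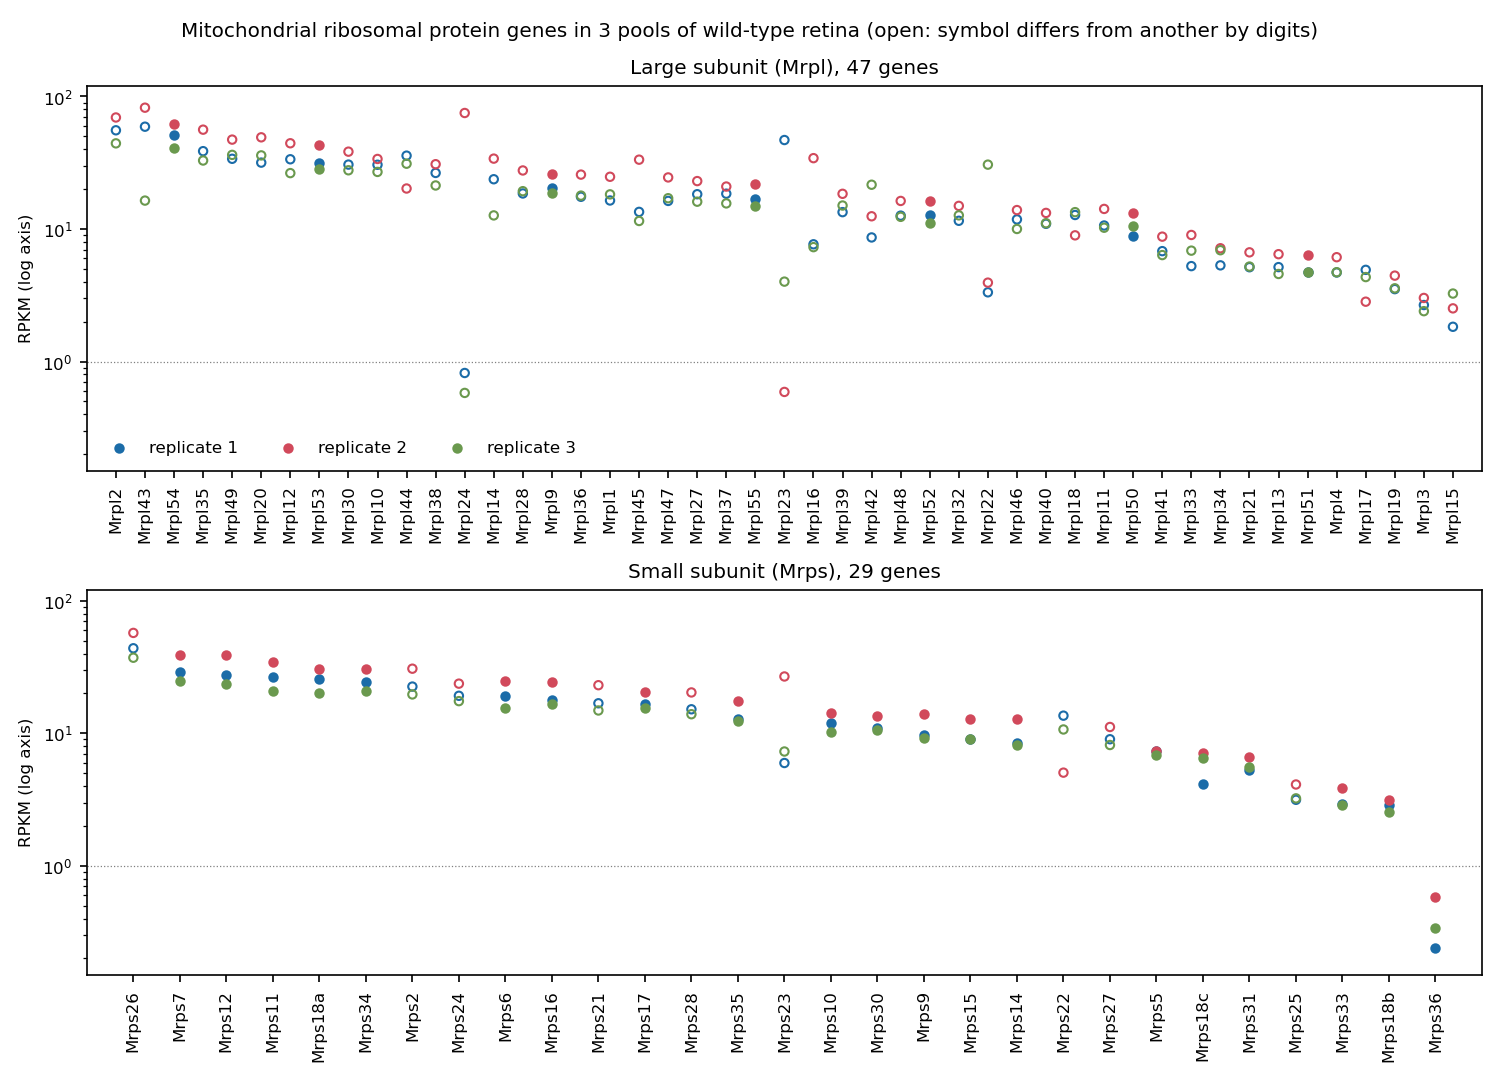
RPKM (log axis) of every member in replicates 1 (blue), 2 (red) and 3 (green), with large subunit genes above and small subunit genes below, each ordered by mean level. Open points mark symbols that differ from another symbol only by added digits. Most members have 3 close points with replicate 2 on top, whereas Mrpl24 and Mrpl23 spread over more than a factor of 10.

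Among the large subunit genes the highest mean belonged to Mrpl2, a protein that lies close to the peptidyl transferase centre. It was at 55.59, 69.45 and 44.30 RPKM in replicates 1, 2 and 3 (56.4 ± 12.6). The protein Mrpl54, part of the stalk region that receives translation factors, followed at 51.53, 62.08 and 41.01 RPKM (51.5 ± 10.5). Both genes were highest in replicate 2 and lowest in replicate 3, and their ranges overlapped. Mrpl43, with a mean of 52.6 RPKM, ranked between them, but its replicates lay far apart, at 59.17, 82.33 and 16.39 RPKM. Mrpl35 (42.6 ± 12.1 RPKM) and Mrpl49 (39.1 ± 7.15 RPKM) completed the 5 highest of the large subunit.

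At the low end of the large subunit stood Mrpl15 and Mrpl3, both homologues of bacterial proteins. Mrpl3 was at 2.67, 3.02 and 2.40 RPKM (2.70 ± 0.311), and Mrpl15 at 1.83, 2.52 and 3.26 RPKM (2.54 ± 0.715). Their replicate ranges overlapped, so their order is not resolved. Mrpl19 (3.85 ± 0.523 RPKM), Mrpl17 (4.03 ± 1.08 RPKM) and Mrpl4 (5.18 ± 0.820 RPKM) came next. Every replicate of Mrpl2 lay above every replicate of these genes.

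In the small subunit Mrps26, a mitochondria-specific protein, was the highest at 43.82, 57.22 and 37.18 RPKM (46.1 ± 10.2). Mrps7, a homologue of the bacterial head protein that organises the ribosomal RNA, had 29.05, 39.03 and 24.78 RPKM (31.0 ± 7.31). Mrps12, a protein of the decoding centre, had 27.59, 38.89 and 23.39 RPKM (29.96 ± 8.02). In each replicate Mrps26 stood above Mrps7, which stood above Mrps12, although the ranges of the latter pair overlapped almost wholly. Mrps11, with 26.64, 34.47 and 20.77 RPKM (27.3 ± 6.87), and Mrps18a (25.4 ± 5.08 RPKM) were the other members of the 5 highest.

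Mrps36 was the lowest member, at 0.24, 0.58 and 0.34 RPKM (0.387 ± 0.175), and the only one below the mean filter. Its product was named for the small subunit but is not part of the mitochondrial ribosome in solved structures, where it belongs to the 2-oxoglutarate dehydrogenase complex. RefSeq lists 3 pseudogenes of Mrps36, and reads shared with them could have been assigned to either, so its level is uncertain. The next lowest small subunit genes were Mrps18b (2.85 ± 0.293 RPKM), Mrps33 (3.24 ± 0.575 RPKM), Mrps25 (3.50 ± 0.533 RPKM) and Mrps31 (5.83 ± 0.694 RPKM), all counted among the mitochondria-specific proteins.

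The paralogues Mrps18a, Mrps18b and Mrps18c are related to the bacterial protein S18 and occupy different places, Mrps18a in the large subunit despite its name and the other two in the small subunit. Mrps18a was at 25.51, 30.38 and 20.22 RPKM. Mrps18c was at 4.14, 7.08 and 6.51 RPKM (5.91 ± 1.56) and Mrps18b at 2.90, 3.12 and 2.54 RPKM. The 3 ranges did not overlap, with Mrps18a above Mrps18c and Mrps18c above Mrps18b in every replicate. Mrps30, the other protein that carries a small subunit name but sits in the large subunit, was at 10.91, 13.43 and 10.61 RPKM (11.7 ± 1.55).

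Median levels of large and small subunit genes overlapped between replicates. The medians were 13.4, 20.2 and 13.4 RPKM for the 47 large subunit genes (15.7 ± 3.93) and 12.7, 17.4 and 10.7 RPKM for the 29 small subunit genes (13.6 ± 3.46). On the log2 scale the large subunit was higher by 0.08, 0.21 and 0.32, a mean of 0.20 ± 0.12 (1.15-fold) with the same sign in 3 of 3 replicates (exact two-sided sign-flip permutation p = 0.25, the smallest possible). With Mrps18a and Mrps30 moved to the large subunit and Mrps36 left out, the difference was 0.12. Among genes whose symbols differ from no other by digits, 7 large and 20 small, it was 0.56. The spread within each subunit was far wider than this difference, since the means ran from 2.54 to 56.4 RPKM in the large and from 0.387 to 46.1 RPKM in the small subunit.

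Divided by descent, the 46 homologues of bacterial ribosomal proteins had medians of 16.4, 22.4 and 14.4 RPKM (17.7 ± 4.16) and the 27 mitochondria-specific proteins 12.7, 16.3 and 11.5 RPKM (13.5 ± 2.49). The log2 difference of the medians was 0.36, 0.46 and 0.32 in the 3 replicates (0.38 ± 0.07, exact two-sided sign-flip permutation p = 0.25). It reversed to -0.061 when the mean of the members replaced the median and to -0.15 when RPKM was multiplied by transcript length, so no direction held under every setting. The multiplication undoes the scaling to length and lowers the shorter set. Median lengths were 1185 bases for the homologues and 1411 bases for the mitochondria-specific proteins. Within the small subunit the median was 17.9 ± 3.46 RPKM for 16 homologues and 8.04 ± 0.748 RPKM for 10 mitochondria-specific proteins. Within the large subunit it was 16.7 ± 5.02 RPKM for 30 homologues and 15.6 ± 2.57 RPKM for 17 mitochondria-specific proteins. Whether the gap differed between the subunits was not tested.

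Structural neighbours did not share 1 level. The stalk and its base, where elongation factors bind, comprised 5 genes with a median of 33.9 ± 8.32 RPKM. Mrpl12, the stalk protein itself, was at 33.60, 44.37 and 26.42 RPKM (34.8 ± 9.03), close to Mrpl53 (34.4 ± 7.83 RPKM) and Mrpl10 (30.4 ± 3.41 RPKM), the anchor of Mrpl12. Mrpl11 in the base of the stalk was lower, at 10.63, 14.18 and 10.23 RPKM (11.7 ± 2.17), with no overlap with the other stalk genes.

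The central protuberance, the part of the large subunit that faces the head of the small one, had a median of 13.0 ± 0.824 RPKM over 5 genes. Mrpl38 was the highest of them at 26.50, 30.84 and 21.31 RPKM (26.2 ± 4.77). The other genes of the protuberance had nearly equal means, Mrpl48 with 13.8 ± 2.20 RPKM, Mrpl46 with 11.9 ± 1.95, Mrpl40 with 11.7 ± 1.29 and Mrpl18 with 11.7 ± 2.40. Their ranges overlapped and their order is not resolved. The exit tunnel list of 6 genes had a median of 10.4 ± 3.33 RPKM. Taken over gene means, the median was 18.2 RPKM for the exit tunnel and 11.9 RPKM for the protuberance, so the order of these lists depended on the measure. In the exit tunnel list Mrpl47 had 16.30, 24.51 and 17.08 RPKM and Mrpl17 4.92, 2.83 and 4.34 RPKM. The exit tunnel list also holds the members whose replicates differed most, described next.

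Variation between replicates was tested for every gene by setting its variance on the log2 scale against the variance limma's robust trended prior gives at its mean, with Benjamini-Hochberg adjustment over all 12562 genes. It called 9 of 75 members (12%) at an adjusted p of 0.05, against 5.44% of all genes tested. They were Mrpl16, Mrpl22, Mrpl23, Mrpl24, Mrpl42, Mrpl43, Mrpl45, Mrps22 and Mrps23. At an unadjusted p of 0.05, 15 of 75 members passed, against 1051 of the 12562 genes. With the non-robust prior 0 members were called, as were 0 of the 12562 genes. At an unadjusted p of 0.05 this prior passed 10 of 75 members, against 704 of the 12562 genes.

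All 9 have a symbol that differs from another symbol only by added digits, such as Mrpl2 and Mrpl22, a property carried by 49 of 76 members (40 large, 9 small). Of these, 44 extend a shorter symbol and 5, Mrpl1, Mrpl2, Mrpl3, Mrpl4 and Mrps2, are extended by longer ones. The variance test called 9 of 49 such members (18.4%) and 0 of 26 others, whose smallest adjusted p was 0.57 in limma for Mrps18c. Among all tested genes it called 29.5% of 1874 genes with such symbols and 1.22% of the other 10688. The share among members with such symbols lay below that of all genes with such symbols, a difference that was not tested.

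Measured by fold, 5 of 49 members with such symbols (10.2%) differed by at least 4-fold between their highest and lowest replicate after scaling, against 24% of the 1874 genes with such symbols. None of the 26 other members did, against 0.72% of the 10688 other genes. The 5 were Mrpl22, Mrpl23, Mrpl24, Mrpl43 and Mrps23.

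Mrpl24, which lies beside the mouth of the exit tunnel, was at 0.82, 75.08 and 0.58 RPKM in replicates 1, 2 and 3, a 95.4-fold range after scaling (adjusted p = 2.26e-05 in limma). Mrpl23, its neighbour at the tunnel exit, was at 46.94, 0.59 and 4.01 RPKM, a 74.6-fold range (adjusted p = 2.91e-05 in limma). Mrpl22, which lines the tunnel wall, was at 3.33, 3.94 and 30.61 RPKM, a 9.45-fold range (adjusted p = 0.000214 in limma). Each of these genes was high in a different replicate, Mrpl23 in replicate 1, Mrpl24 in replicate 2 and Mrpl22 in replicate 3. Sorted within each replicate without regard to symbol, the 3 values were 0.82, 3.33 and 46.94 in replicate 1, 0.59, 3.94 and 75.08 in replicate 2, and 0.58, 4.01 and 30.61 in replicate 3. In every replicate 1 value of the set lay under 1 RPKM, 1 between 3.33 and 4.01 and 1 at 30.61 or more.

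The same held less sharply elsewhere. The 14 members of largest fold after scaling among the 75 tested, from 1.74-fold upwards, lay in 4 runs of consecutive numbers, Mrpl14 to Mrpl18, Mrpl22 to Mrpl24, Mrpl42 to Mrpl45, and Mrps22 with Mrps23, a grouping made after the values were seen. The highest fold among the other 61 tested members was 1.64 (Mrps18c), and the median over the 26 tested members without such symbols was 1.25. In the run Mrpl14 to Mrpl18, Mrpl16 was at 7.67, 34.26 and 7.30 RPKM (adjusted p = 0.00226 in limma) and stood above Mrpl14 and Mrpl18 only in replicate 2. Mrpl14 in the same run had 23.75, 33.98 and 12.67 RPKM and did not pass (adjusted p = 0.0625 in limma, and 0.0184 without replicate 2).

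In the run Mrpl42 to Mrpl45, Mrpl43 had 59.17 and 82.33 RPKM in replicates 1 and 2 but 16.39 in replicate 3 (adjusted p = 0.00289 in limma). Mrpl42 had 8.64, 12.48 and 21.59 RPKM and Mrpl45, which helps to anchor the ribosome at the membrane, 13.47, 33.37 and 11.50 RPKM (adjusted p = 0.0279 in limma for each). With the dependence of replicate deviations on transcript length removed, these 2 calls were lost (adjusted p = 0.068 and 0.0885 in limma). In that setting 7 of 75 members (9.33%) were called, against 4.47% of 12407 genes. Mrpl44, an RNase III-like protein, had 35.78, 20.22 and 31.11 RPKM and did not pass (adjusted p = 0.131 in limma). Thus the gene that was lowest of the run differed, Mrpl42 in replicates 1 and 2 and Mrpl45 in replicate 3.

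Mrps22 and Mrps23, mitochondria-specific proteins of the small subunit, were high in different replicates. Mrps22 was at 13.59, 5.05 and 10.69 RPKM (adjusted p = 0.0144 in limma) and Mrps23 at 5.97, 26.84 and 7.29 RPKM (adjusted p = 0.00352 in limma). Mrps22 was therefore the higher gene in replicates 1 and 3 and Mrps23 in replicate 2. Across the 14 genes of the 4 runs the log2 levels of replicates 1 and 2 correlated with Pearson r = 0.008, those of replicates 1 and 3 with r = 0.57 and those of replicates 2 and 3 with r = 0.03. Across the other 61 members the same correlations were 0.99, 0.99 and 0.99. The 14 genes are those of largest fold between replicates, so lower correlations among them than among the other 61 follow from that choice. Genes are not independent replicates, so these values describe the tables and carry no p.

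**Figure D2:**
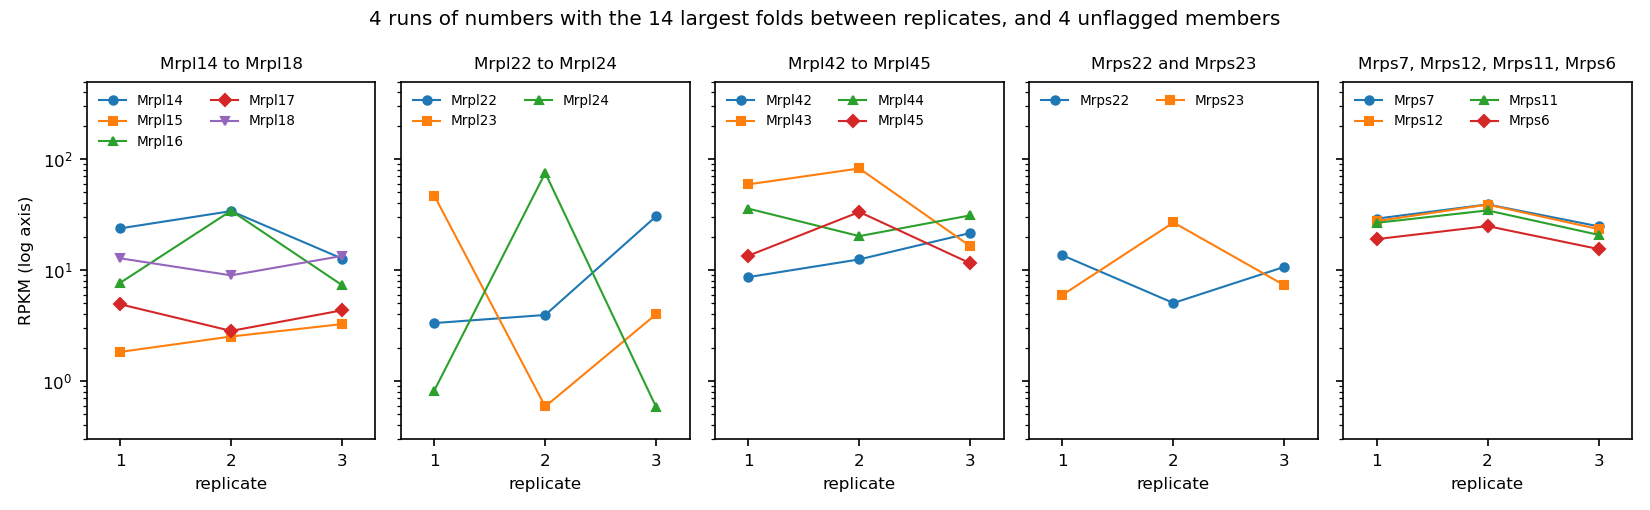
RPKM (log axis) by replicate for the members of the 4 runs of consecutive numbers that hold the 14 largest folds between replicates, and on the right for Mrps7, Mrps12, Mrps11 and Mrps6, whose symbols differ from no other by digits. Lines join the values of 1 gene and carry no order in time; in the runs they cross, as for Mrpl23 (46.94, 0.59 and 4.01 RPKM) and Mrpl24 (0.82, 75.08 and 0.58 RPKM), whereas on the right they stay parallel.

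The means of these 14 genes should be read with their replicate values. Left out, the difference between large and small subunit became 0.30 on the log2 scale against 0.20 with them. How symbols and values were joined in the tables was not tested. Of the 9 calls, 6 were also made without replicate 1, 4 without replicate 2 (where Mrpl14 was called in addition, 5 in all) and 4 without replicate 3. The calls of Mrpl42, Mrpl45 and Mrps22 were absent without replicate 1, those of Mrpl16, Mrpl24, Mrpl45, Mrps22 and Mrps23 without replicate 2, and those of Mrpl22, Mrpl42, Mrpl43, Mrpl45 and Mrps22 without replicate 3.

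The members also moved together between replicates, on a far smaller scale. After division by trimmed-mean scaling factors of 0.983, 1.09 and 0.932, 62 of 75 tested members (82.7%) had their highest value in replicate 2, against 35% of all genes tested. The median member was 1.17-fold higher in replicate 2 than in replicate 1, with 67 of 75 members higher, and 1.18-fold higher than in replicate 3, with 64 of 75 higher. Replicate 3 over replicate 1 gave 0.970-fold. Over all tested genes the corresponding medians were 0.998-fold, 1.01-fold and 1.00-fold.

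Both subunits took part, with 38 of 47 large and 24 of 28 tested small subunit genes highest in replicate 2. Members without digit-extended symbols behaved alike, 23 of 26 (88.5%) being highest there. The span of the member median over the replicates was 0.44 on the log2 scale (1.36-fold), against 0.04 for all tested genes, and without replicate 2 it was 0.0037. For the 26 members without digit-extended symbols the span was smaller, at 0.29 (1.22-fold), against 0.03 for all tested genes without such symbols. Examples outside the 4 runs were Mrps12, highest in replicate 2 with a 1.42-fold range after scaling, and Mrpl35 with a 1.46-fold range. Mrps5, at 7.36, 7.41 and 6.86 RPKM, and Mrpl10, at 30.55, 33.78 and 26.97 RPKM, were among the 7 members highest in replicate 1 after scaling, and 6 were highest in replicate 3.

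Transcript length moved with this shift. Among all tested genes, the share highest in replicate 2 was 69.3% for transcripts of up to 1000 bases, 62.3% from there to 2000 bases, 40.1% to 3000 bases and 14.9% beyond. For the members the counts in the same classes were 21 of 27, 23 of 27, 8 of 8 and 10 of 13. In each class the members' share lay above that of all genes, by the most in the longest class, where it was 76.9% of 13 members, and these gaps were not tested. After the dependence on length was removed, 36 of 75 members (48%) were highest in replicate 2, against 30.3% of all genes, and the span of the member median was 0.30. Removing it was chosen after the data were seen, and its part in the result beyond these values was not tested.

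Tissue markers were compared over the same replicates. After scaling, 4 of 10 rod genes, 0 of 10 lens genes and 2 of 9 tested pigment epithelium genes were highest in replicate 2. Replicate 3 was highest for 8 of 10 lens genes and replicate 1 for 7 of 9 pigment epithelium genes, against 4363 and 3798 of the 12562 genes tested. The variance test called 0 of 10 rod, 3 of 10 lens and 4 of 9 pigment epithelium genes, against 5.44% of all genes tested. The 4 pigment epithelium calls did not share a direction. Pmel, Tyrp1 and Mlana were highest in replicate 1. Rpe65, whose symbol is digit-extended, was highest in replicate 2, at 6.25, 20.06 and 6.74 RPKM in replicates 1, 2 and 3. Scaled medians of the rod, lens and pigment epithelium lists spanned 1.04-fold, 1.26-fold and 3.23-fold over the replicates. The summed rod level was 22036, 25155 and 19932 RPKM, the lens level 4921, 3873 and 4317, and the pigment epithelium level 727, 742 and 466. Cryaa (2058, 1569 and 1395 RPKM) and Crybb2 (1645, 1206 and 1640 RPKM) led the lens sum. The part of tissue composition in the shift was not tested.

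**Figure D3:**
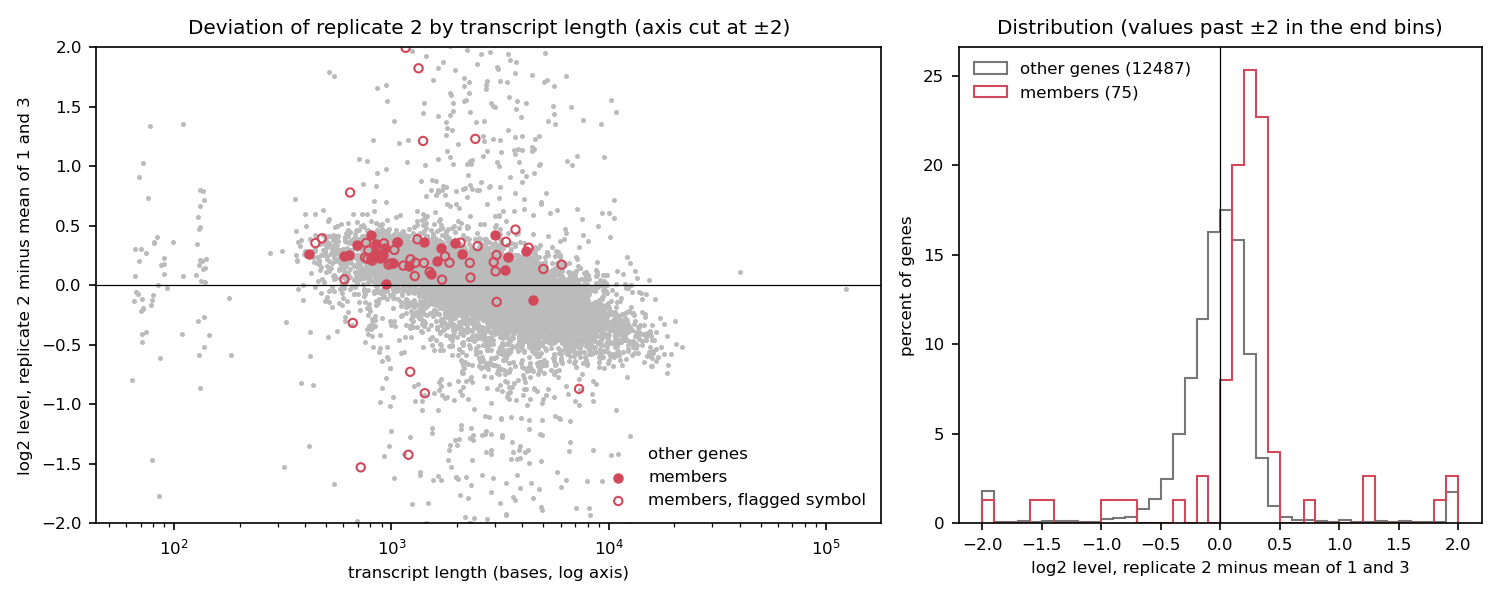
Left, the log2 level of replicate 2 minus the mean of replicates 1 and 3 after scaling, against transcript length in bases (log axis), for members (red, open where the symbol differs from another by digits) and other tested genes (grey). Right, the distribution of the same difference as a percent of the 75 tested members and of the other tested genes. The grey cloud slopes down with length, and the members centre above 0.

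Genes that act with the mitochondrial ribosome were listed for comparison. A list of 6 genes for proteins of the ribosome that carry other symbols had a median of 13.0 ± 1.87 RPKM. Aurkaip1, a small subunit protein, was at 53.11, 67.27 and 44.87 RPKM (55.1 ± 11.3), as high as the highest members. Ict1 (41.1 ± 7.02 RPKM), a release factor built into the large subunit, and Gadd45gip1 (15.6 ± 2.67 RPKM) followed. Dap3, a GTP-binding small subunit protein, had 2.75, 9.81 and 2.01 RPKM and was the 1 of 6 that varied (adjusted p = 0.00765 in limma). Its symbol too is a digit-extended one, and 29.5% of all tested genes with such symbols were called. The list left out Mrpl57, which appears under the symbol Mrp63 at 8.23, 10.01 and 7.51 RPKM (8.58 ± 1.29) and is not among the members either.

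Factors of mitochondrial translation were lower, with a median of 6.23 ± 0.233 RPKM over 15 genes. None of them carries a digit-extended symbol and none varied, against 1.22% of all tested genes without such symbols. The highest of these factors were Oxa1l (24.2 ± 3.16 RPKM), which inserts new chains into the inner membrane, Letm1 (21.2 ± 2.60 RPKM) and the messenger RNA-binding Lrpprc (14.03 ± 0.731 RPKM). Assembly and rRNA modification factors, 20 genes of which 1 carries such a symbol, had a median of 8.86 ± 1.25 RPKM. They had 0 calls, against 5.44% of all genes tested. The highest were the helicase Dhx30 (37.0 ± 4.39 RPKM), Eral1 (16.7 ± 2.12 RPKM), a chaperone of the small subunit RNA, and the GTPase Gtpbp5 (13.8 ± 2.52 RPKM). Mitochondrial transcription genes, 6 in number, had a median of 4.20 ± 0.553 RPKM, with the RNA polymerase Polrmt at 16.9 ± 2.33 RPKM and Tfam at 4.76 ± 0.557 RPKM. The member median lay above those of these 3 lists in every replicate.

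Mitochondrial aminoacyl-tRNA synthetases, which charge the tRNAs, had a median of 11.8 ± 1.27 RPKM over 19 genes, of which 14 carry digit-extended symbols. The variance test called 5 of the 19, against 29.5% of all tested genes with such symbols and 1.22% of the others. Lars2 was the highest by mean with 430, 242 and 686 RPKM (adjusted p = 0.0237 in limma). Sars2 had 80.96 and 94.34 RPKM in replicates 1 and 2 and 8.92 in replicate 3 (adjusted p = 0.000215 in limma), and Aars2 was steady at 59.68, 66.24 and 49.96 RPKM (58.6 ± 8.19).

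Subunits of the respiratory chain that are encoded in the nucleus had higher medians than the ribosome that makes their partners. Complex I, 36 genes, had a median of 39.3 ± 5.97 RPKM and complexes III and IV with ATP synthase, 34 genes, 66.2 ± 13.5 RPKM. Ndufb9 (150 ± 35.9 RPKM) led the former and Atp5b (559 ± 110 RPKM), the catalytic subunit of ATP synthase, the latter. Means under 5 RPKM were found for 2 of 36 and 4 of 34 genes, with Ndufs5 at 0 and Cox7c at 0.85 RPKM the lowest. Cox7b was at 23.84, 0.04 and 0.05 RPKM in replicates 1, 2 and 3. In these lists 2 of 35 and 1 of 31 tested genes varied, against 5.44% of all genes tested. In replicate 2, 32 of 35 (91.4%) and 28 of 31 (90.3%) were highest, against 35% of all genes tested. Their median transcript lengths, 800.5 and 743 bases, were shorter than that of the members. Among the 15 translation factors, with a median length of 2588 bases, 7 were highest in replicate 2.

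**Figure D4:**
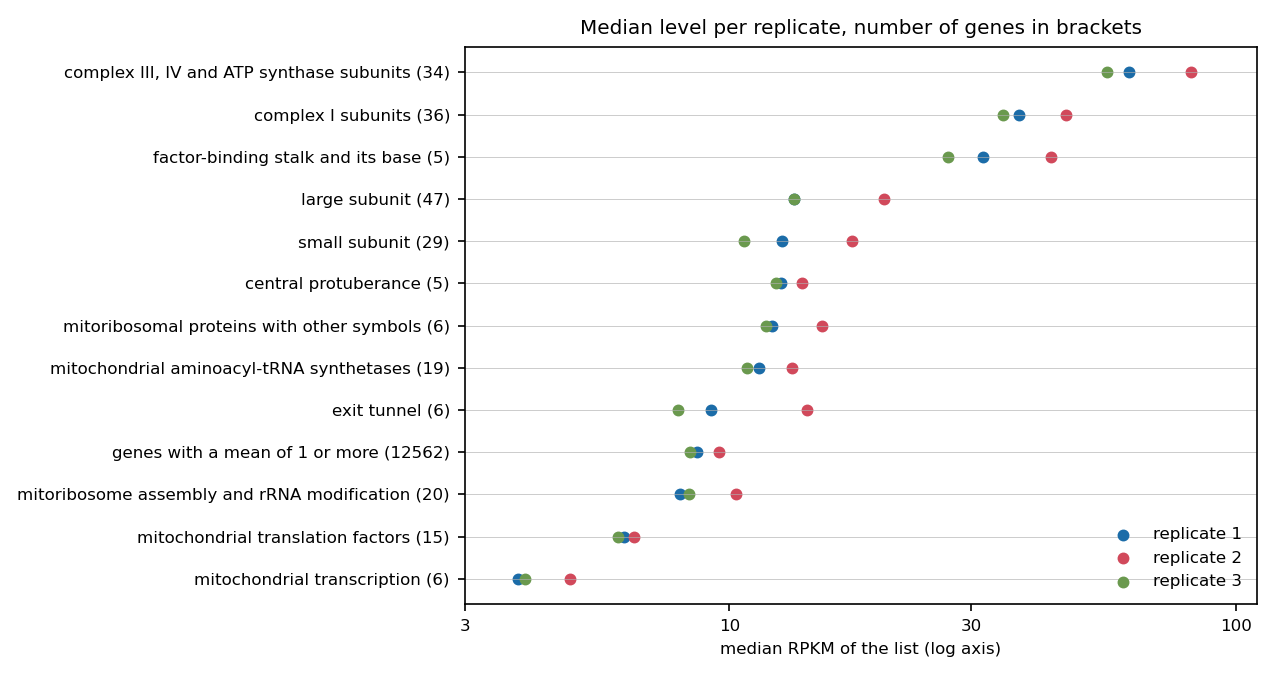
Median RPKM (log axis) of each gene list in replicates 1 (blue), 2 (red) and 3 (green), with the number of genes in brackets. Respiratory chain lists lie highest, the subunits of the mitochondrial ribosome in the middle, and translation factors and transcription genes lowest, and replicate 2 is the highest point of every list.

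As a description, the promoters of the members were searched for motifs of factors known to act on nuclear genes of mitochondrial function. Any relation of the motifs to the shift in replicate 2 was not tested. A promoter of 300 bases, from 250 before to 50 after the transcription start in RefSeq (mouse build GRCm38.p6, which is not the build of the deposited tables), was found for 67 of 76 members. The motifs, read on both strands, were GCATGCGC for NRF1, CCGGAAG for the ETS family including NRF2/GABP, and AAGATGGC for YY1. None of these contains another, but the NRF1 motif and its reverse complement share their inner letters, so 1 site can match on both strands. Counts are of genes, and a gene with more than 1 promoter counted where any of them matched. The ETS motif was found for 24 of 67 members (35.8%). The shares were 19.1% of 8940 genes whose mean reached 1 RPKM and 9.93% of all 27025 genes with a promoter. YY1 was found in 12 (17.9%, against 5.10% and 3.19%) and NRF1 in 8 (11.9%, against 6.02% and 3.05%).

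At least 1 motif stood in 36 of 67 member promoters (53.7%), against 27.3% of the expressed genes, and 2 different motifs in 8 (11.9%), against 2.81%. The share was 53.7% for large subunit genes (22 of 41) and 53.8% for small subunit genes (14 of 26). By motif, NRF1 was in 7 of 41 large (17.1%) and 1 of 26 small subunit promoters (3.85%), ETS in 31.7% and 42.3%, and YY1 in 14.6% and 23.1%. The respiratory chain lists were read in the same way. At least 1 motif was in 43.8% of 32 complex I promoters and in 50% of 26 promoters of complexes III, IV and ATP synthase, YY1 in 21.9% of the former and NRF1 in 23.1% of the latter, and 2 different motifs in 0 and 19.2%. These counts are small, the differences were not tested, and a match describes letters, not binding. With the highest value of each gene taken, member promoters had a median GC content of 58%, below the 62.7% of the expressed genes, and 21 CpG pairs against 22.

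The following stretches, 5′ to 3′ on the strand of the gene, show how the motifs (in capitals) sit around the starts. The first group holds YY1 motifs just downstream of the start in small subunit genes, in Mrps18a and Mrps27 together with an ETS motif upstream. Mrps18a lies at chr17:46110929-46111028 (plus strand), Mrps27 at chr13:99344711-99344810 (plus) and Mrps7 at chr11:115604065-115604166 (plus), all in GRCm38.p6.
Mrps18a: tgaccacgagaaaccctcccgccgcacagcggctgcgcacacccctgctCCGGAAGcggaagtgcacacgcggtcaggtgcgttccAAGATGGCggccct
Mrps27: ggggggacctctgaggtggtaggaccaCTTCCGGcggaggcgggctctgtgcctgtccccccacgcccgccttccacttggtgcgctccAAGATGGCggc
Mrps7: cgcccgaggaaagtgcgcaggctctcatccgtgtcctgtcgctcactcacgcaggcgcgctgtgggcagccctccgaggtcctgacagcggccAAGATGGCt

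In these genes the YY1 motif began 12, 15 and 19 bases after the start. Their levels were 25.4, 9.45 and 31.0 RPKM, so promoters with the same motif at nearly the same place belonged to genes of different level.

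The second group holds large subunit promoters with NRF1 or ETS motifs. Mrpl33 (chr5:31613876-31613975, plus strand) has an NRF1 motif on the minus strand and an ETS motif next to it, with 1 base between them and the start within the latter. Mrpl32 (chr13:14613038-14613137, minus strand) has 4 NRF1 matches, of which 2 overlap on opposite strands. Mrpl53 (chr6:83109033-83109132, plus strand) has an ETS motif on each strand.
Mrpl33: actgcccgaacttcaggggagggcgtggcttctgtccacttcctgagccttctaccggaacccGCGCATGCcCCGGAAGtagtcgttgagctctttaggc
Mrpl32: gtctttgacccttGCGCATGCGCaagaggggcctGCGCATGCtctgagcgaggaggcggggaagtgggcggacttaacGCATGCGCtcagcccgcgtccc
Mrpl53: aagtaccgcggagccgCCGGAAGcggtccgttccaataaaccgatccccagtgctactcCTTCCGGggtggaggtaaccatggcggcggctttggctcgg

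Mrpl33 was at 5.25, 9.02 and 6.87 RPKM, Mrpl32 at 11.54, 14.95 and 12.68 and Mrpl53 at 31.71, 43.16 and 28.19. All were highest in replicate 2, as were 62 of the 75 tested members.

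**Figure D5:**
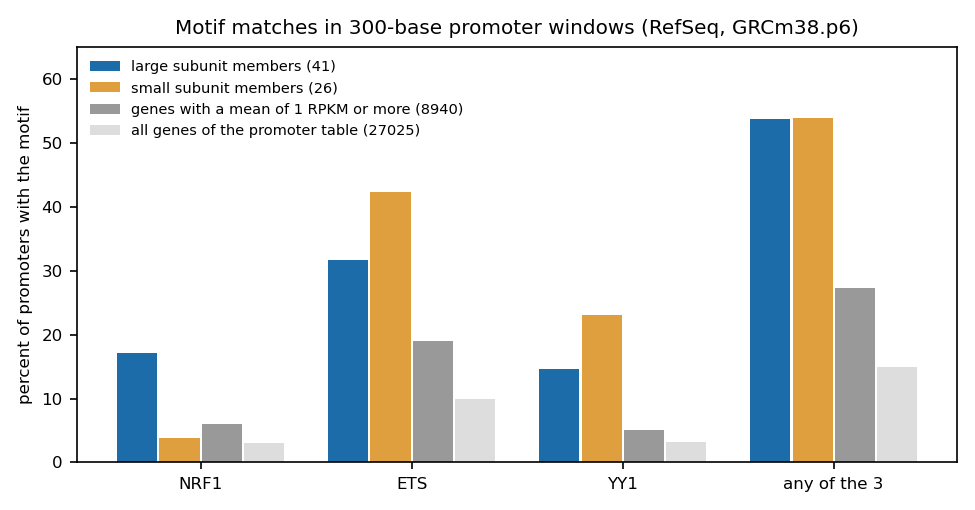
Percent of genes with the NRF1, ETS or YY1 motif, or at least 1 of the 3, on either strand of a promoter of 300 bases. Bars show 41 large subunit members (blue), 26 small subunit members (orange), 8940 expressed genes (dark grey) and all 27025 genes with a promoter (light grey). For at least 1 motif the member bars stand at 53.7% and 53.8%, against 27.3% and 14.9%.

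A large and a small subunit gene start close together on opposite strands. Mrpl46 on the minus strand and Mrps11 on the plus strand start 41 bases apart, and the stretch from one start to the other, chr7:78783089-78783131 in GRCm38.p6, holds none of the motifs. The YY1 motif of the Mrps11 window lies farther away, at position -107 from its start.
Mrpl46 to Mrps11: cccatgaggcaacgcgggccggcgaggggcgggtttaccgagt
Mrps11 was at 26.64, 34.47 and 20.77 RPKM and Mrpl46 at 11.82, 13.90 and 10.01. The ratio of Mrps11 to Mrpl46 was 2.25, 2.48 and 2.07 in the 3 replicates (2.27 ± 0.203). Exons of the pair overlap on opposite strands in the GENCODE M21 annotation, and the strand setting of the counting is not given in the sources used here, so reads in the overlap cannot be assigned. In all, the promoter windows of 23 members met that of a gene on the other strand.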

How the data were processed

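RNA sequencing of 3 pools of wild-type retina was used through the 3 deposited tables, 1 for each biological replicate. Per the submitters' processing notes, the tools were GSNAP and HTSeq and the build was mm9, with no versions. The annotation, the strand setting, the filters and the step from 2 technical replicates to 1 column were not given in the sources used here. The deposited values have 2 decimals and no named unit. Scaling by the authors to RPKM before they were deposited was inferred, because their products with transcript length in kilobases summed to 786293, 829133 and 729494, under the bound of 1000000. FPKM would fit equally. The p-values measure only the spread between these pools.

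Of 15468 rows, 3 repeated another with identical values and were dropped. Levels are printed as deposited. Differences used log2(RPKM + 0.1), so folds of low genes are understated. Folds between replicates and tests used values divided by trimmed-mean factors, which ignore at each end 30% of the genes by ratio and 5% by mean. Variance was tested with limma 3.58.1 (statmod 1.5.0, R 4.3.3) for genes whose mean reached 1 RPKM, and was checked on simulated data. Transcript lengths (GENCODE M21) were found for 98.6% of genes and all 76 members. Symbols were called digit-extended where, among symbols of the tables and RefSeq, one equals another plus digits.

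The members and lists were chosen with earlier results of these data known. Named genes were the 5 highest and 5 lowest members of each subunit, the members called in the variance test, the 6 of largest fold, the exit tunnel, stalk and central protuberance lists, the Mrps18 paralogues, members whose symbol and structural subunit differ, and the 3 highest genes of the other lists; others were named after their values were seen. Promoter sequences come from RefSeq (GRCm38.p6). RefSeq lists 6 pseudogenes of members, and exons of 32 members overlap another gene in GENCODE M21. For 23 of them the other gene is protein-coding, on the same strand for 4 (Mrpl53, Mrps6, Mrps24 and Mrps34). These values are less certain.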

Additional observations from a re-analysis of the deposited data

How the results depend on the processing

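Among the results that answer a comparison, 37 alternative values lay close to the main one, 14 moved and 3 reversed. Multiplying RPKM by transcript length reversed the difference of members from all genes (-0.28) and that of bacterial homologues from mitochondria-specific proteins (-0.15), and the mean in place of the median reversed the latter (-0.061). The multiplication undoes the scaling to length and lowers shorter genes relative to longer ones. Without digit-extended symbols the difference was 0.56 for large minus small subunit and 0.56 for homologues minus mitochondria-specific proteins. The same restriction left 26 of 27 members detected, 0 of 26 varying and 23 of 26 highest in replicate 2. Without the mean filter the members exceeded all genes by 1.26. The non-robust prior called 0 members. With the length trend removed 36 members (48%) were highest in replicate 2, against 30.3% of all genes. With 2-fold in place of 4-fold 10 of 49 members with digit-extended symbols (20.4%) passed, against 32.6% of 1874 genes with such symbols. Of the other members 0 of 26 passed, against 1.69% of the other 10688 genes. Leaving out 1 replicate in turn gave 4 to 6 varying members (5.33% to 8%), against 2.36% to 3.80% of all genes tested. It gave 2 to 4 members past 4-fold, 4.08% to 8.16% of the 49 with such symbols, against 8.91% to 20.7% of all genes with such symbols. With 1 replicate left out the span of the member median ran from 0.0037 to 0.44. Without scaling the span was 0.67, against 0.19 for all tested genes. For the 9 called genes 24 alternative values lost the call, and Mrpl14 gained one in 2. The cause was not tested. Removal of the length trend, the 2-fold limit, the symbols of the tables alone, leaving out the 14 genes, leaving out replicates for the 4-fold count, and the count highest in replicate 2 with all its alternatives were chosen after seeing the data. No paired analysis was possible because there is 1 group. The unknown depth allows no limit of detection, and n = 3 allows no exact p below 0.25.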
